A study of Mus musculus with 12 samples.

Results

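A set of 9 genes that mark the capillary endothelium of the alveolus was followed in whole-lung RNA-Seq of miR-30a-/- mice. They were chosen by gene symbol, as 9 of the 55487 genes in the count table. They are Car4, Ednrb and Apln of aerocytes, Aplnr, Gpihbp1, Plvap and Kit of general capillary cells, and Cldn5 and Pecam1 of endothelium at large. The 12 lungs came from C57BL/6J mice at postnatal day 21, and each mouse, control or exposed, lacked miR-30a through a deletion present in every cell of the body. Hyperoxia mice breathed 95% oxygen from postnatal day 1 to day 5 and then room air, and control mice breathed room air throughout. There were 4 groups of 3 lungs: room air females, hyperoxia females, room air males and hyperoxia males. The lungs were perfused before harvest, litters were pooled and shared out between the exposures, and no source ties a lung to its litter, so the p-values measure the spread between these 12 animals. No wild-type lung was analysed here, so nothing below compares genotypes.

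The capillaries of the alveolar wall hold a pair of endothelial cell states. Aerocytes are large, flat cells that carry out gas exchange, and general capillary cells can divide, give rise to aerocytes and help to set vessel tone. The states signal to each other: aerocytes release apelin, the product of Apln, and general capillary cells carry its receptor, the product of Aplnr. In newborn mice high oxygen disturbs both alveolar and capillary growth, which is why the pair is followed in models of bronchopulmonary dysplasia.

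The deleted microRNA acts through bases 2 to 8 of its mature strand, the seed, which pairs with matching letters in the 3′ untranslated regions of messenger RNAs. The strand follows with its seed in capitals, beside 3 further mouse miRNAs with this seed, which could pair with the same letters; sequences are from RefSeq (GRCm38.p6), and the list is not complete. miR-30a-5p lies at chr1:23272274-23272295 on the plus strand.
mmu-miR-30a-5p: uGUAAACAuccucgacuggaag
mmu-miR-30c-5p: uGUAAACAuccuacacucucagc
mmu-miR-30e-5p: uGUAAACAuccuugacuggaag
mmu-miR-384-5p: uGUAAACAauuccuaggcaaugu
A full match to this seed, the 7 letters TGTTTAC on the transcript strand, was found in the 3′ untranslated region of 1 of the 9 genes, Ednrb, and in 12.5% of the 20639 protein-coding genes searched. The search took 1 transcript per gene, that with the longest coding sequence, so other 3′ ends were not searched. The regions searched were short for some genes, such as Gpihbp1 (89 bases) and Pecam1 (160 bases). The Ednrb match begins at base 177 of the 2441-base untranslated region. It is shown in capitals, within the stretch at chr14:103816872-103816900 on the minus strand (GRCm38). It is printed as the only such site found among the 9 genes.
Ednrb site: tattcacgggcTGTTTACaacctaagaaa
Among the 2408 genes with an untranslated region of like length, 24.2% hold a match. A match is a description of letters, and no lung with miR-30a was at hand to set beside it.

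RefSeq promoters, 250 bases before to 50 after a start site, were available for 5 of the 9 genes. Those of Apln and Cldn5 are printed because these were the genes of the 9 with the smallest p-values after hyperoxia over both sexes. Both strands were searched for a hypoxia-response core, spelled ACGTG, and for the core bound by ETS factors, spelled AGGAAG. They were also searched for a GC box, with the letters GGGCGG, and for a TATA box, which reads TATAAA. Capitals mark each match, and on the minus strand the reverse complement is what is seen.
Apln promoter, chrX:48034804-48035103, minus strand: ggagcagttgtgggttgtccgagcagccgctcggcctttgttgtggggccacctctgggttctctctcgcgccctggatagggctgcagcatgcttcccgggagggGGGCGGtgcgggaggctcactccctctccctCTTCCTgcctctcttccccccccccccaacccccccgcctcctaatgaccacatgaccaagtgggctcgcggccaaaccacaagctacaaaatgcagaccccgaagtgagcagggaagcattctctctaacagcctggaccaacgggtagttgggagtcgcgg
Cldn5 promoter, chr16:18776597-18776896, plus strand: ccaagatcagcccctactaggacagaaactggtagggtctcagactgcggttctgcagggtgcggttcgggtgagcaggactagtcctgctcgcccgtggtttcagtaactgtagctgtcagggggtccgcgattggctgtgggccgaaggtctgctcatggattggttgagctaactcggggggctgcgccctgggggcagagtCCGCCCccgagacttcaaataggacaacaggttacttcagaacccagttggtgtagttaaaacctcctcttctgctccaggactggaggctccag
Both promoters held 1 GC box, a motif in 35.7% of the 32851 promoters of this length, and that of Apln also held 1 ETS core, a motif in 35.4%. Neither held ACGTG, which 19.6% of promoters held, or TATAAA, which 13.6% held. The Car4 promoter held 1 match to ACGTG and 1 to TATAAA, both Kit promoters held 1 ETS core and 1 GC box, and the Ednrb promoter held none of the 4 motifs.

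The libraries held 8763033 to 16741694 counts per lung. Room air male 1 stood apart with 0.174% of its counts on 6 skeletal muscle genes, against 0.00938% to 0.0176% in the other 11 lungs. Counts on 3 repeat-rich gene models took 7.12% to 28.5% of a library, and counts on 1490 olfactory and vomeronasal receptor genes, which lung hardly expresses, took 0.410% to 0.945%. The receptor share was 0.747% ± 0.149 after hyperoxia and 0.663% ± 0.178 in room air (SD, n = 6 each, exact permutation test within sex, two-sided, p = 0.395, adjusted p = 0.527 over 4 library measures). In females it was 0.669% to 0.847% after hyperoxia and 0.410% to 0.739% in room air. Other library measures moved with exposure in females too: the repeat-rich models took 23.5% ± 4.43 after hyperoxia and 12.7% ± 6.43 in room air (SD, n = 3 each), and totals were 10255870 to 11584337 against 12497449 to 16741694 counts, with no overlap. Their part in the female values that follow was not tested. The labels held where they could be checked: Xist had 8834 to 27296 counts in females and 148 to 210 in males, and Ddx3y had 270 to 715 counts in males and 0 in females. The precursor gene Mir30a had 0 counts in all 12 lungs, which allows up to 3 counts, and without a wild-type lung this says little about the deletion. Lung identity was plain from Sftpc, the surfactant protein of alveolar type 2 cells, at a mean of 3210 CPM.

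All 9 genes were well measured and passed the filter on low counts. Their levels are given as CPM, counts brought to one library size with upper-quartile normalization, and their order between genes as CPM per kilobase of exon. Plvap stood highest at 74.1 ± 18.7 CPM per kb (SD, n = 12), followed by Pecam1 at 61.2 ± 14.4, Cldn5 at 51.0 ± 15.1 and Car4 at 28.6 ± 7.09. Ednrb at 21.4 ± 4.68, Kit at 19.99 ± 4.61, Aplnr at 19.9 ± 5.06 and Gpihbp1 at 17.4 ± 3.79 lay close together, and Apln was the lowest at 11.8 ± 3.59. Within a lung the order was firmer than these spreads: Cldn5 exceeded Car4, Car4 exceeded Ednrb and Gpihbp1 exceeded Apln in 12 of 12 lungs. Kit and Aplnr could not be ordered, since Kit was above Aplnr per kilobase in 3 of 12 lungs although its mean was higher.

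Aerocyte genes came first in the comparison of hyperoxia with room air. Apln, at chrX:48025146-48034853 on the minus strand, encodes apelin, the peptide ligand with which aerocytes signal to neighbouring capillary cells. In room air females Apln stood at 56.8, 54.1 and 42.3 CPM, and in hyperoxia females at 31.0, 28.3 and 38.1 CPM. In room air males it stood at 29.2, 46.1 and 38.6 CPM, and in hyperoxia males at 35.5, 18.5 and 27.3 CPM. The female groups did not overlap, whereas 2 of the 3 hyperoxia males lay below the lowest room air male and the third lay within the room air range. Over both sexes the log2 fold change was -0.57 ± 0.14 (SE), a fold of 0.675, with an adjusted p of 0.335 over the 45828 genes tested by edgeR's quasi-likelihood test. It was -0.65 ± 0.20 in females (adjusted p = 0.331) and -0.48 ± 0.20 in males (adjusted p = 1). In bulk lung, fewer cells of a type and less RNA per cell cannot be told apart, here and in all that follows. Apln was not called. Its sign was negative in both sexes under each of the alternatives run, but its size was stable in neither sex. In females it was -0.28 on adjusting for the receptor share (adjusted p = 0.94) and -0.20 when libraries were scaled to 16 other pan-endothelial genes. With single lungs left out it ran from -0.71 to -0.26 in males and from -0.78 to -0.57 in females. Over both sexes, leaving out 1 lung, hyperoxia male 1, gave a log2 fold change of -0.69 and an adjusted p of 0.0252 in edgeR. That is a call in a fit that called 37 genes, 0.0788% of those tested. With any other lung left out the adjusted p was 0.0747 or more. A fit with 1 RUVr factor, which models unwanted variation, gave the same log2 fold change of -0.57 over both sexes with an adjusted p of 0.00034. There Apln was not called, its fold being under 1.5. The factor is drawn from the residuals of the same group fit and takes out spread within groups. Its small p-values, here and below, are therefore not separate support.

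Ednrb, at chr14:103814625-103844402 on the minus strand, encodes the endothelin B receptor, which clears endothelin and relays its signal in endothelium. Ednrb ranged from 69.2 to 123.7 CPM in the 6 room air lungs (median 92.2) and from 60.2 to 109.8 CPM in the 6 hyperoxia lungs (median 85.8). The groups overlapped in both sexes, with log2 fold changes of -0.27 ± 0.23 in females and 0.06 ± 0.23 in males.

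Car4, at chr11:84957786-84966044 on the plus strand, encodes a membrane-bound carbonic anhydrase that speeds the exchange of carbon dioxide at the aerocyte surface. In room air females Car4 stood at 75.4, 73.7 and 47.6 CPM, and in hyperoxia females at 64.5, 44.6 and 42.2 CPM. In room air males it stood at 35.8, 61.8 and 48.4 CPM, and in hyperoxia males at 72.1, 43.4 and 64.2 CPM. The groups overlapped in each sex, and the signs differed: the log2 fold change was -0.38 ± 0.23 in females (adjusted p = 0.443) and 0.30 ± 0.23 in males (adjusted p = 1). The difference between these responses, females minus males, was -0.68 ± 0.32 with an adjusted p of 0.578 in edgeR. No gene was called in that comparison (0% of those tested), with 3875 genes at an unadjusted p under 0.05. The fit with 1 RUVr factor called Car4 there at an adjusted p of 0.000447, in a fit that called 2102 genes, 4.59% of those tested, and adjusting for the receptor share left a difference of -0.08.

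**Figure D1:**
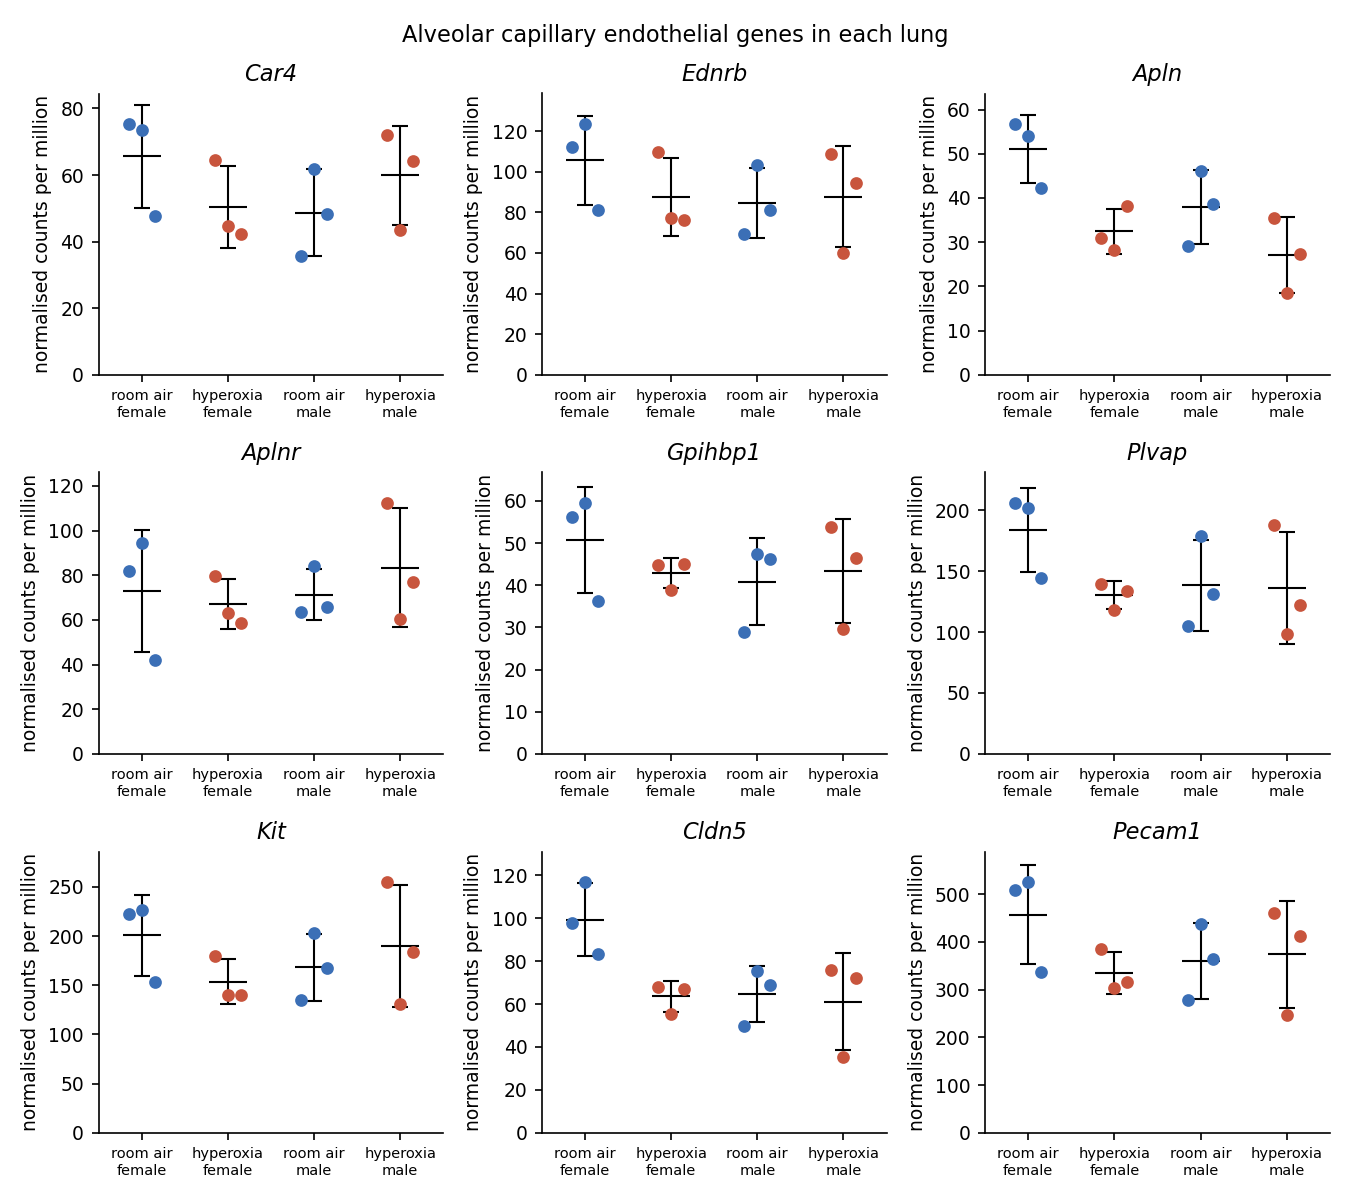
Normalised counts (CPM) of the 9 genes (vertical axis, from 0) in each of the 12 lungs by group (horizontal axis); points are lungs, blue for room air and red for hyperoxia, and the bar and whiskers give the mean and SD of 3 lungs. The Apln, Plvap and Cldn5 panels show female groups that do not overlap, and the remaining panels show overlap in both sexes.

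General capillary genes followed. Aplnr, at chr2:85136225-85139923 on the plus strand, encodes the G protein-coupled apelin receptor. In room air females Aplnr stood at 81.9, 94.5 and 42.0 CPM, and in hyperoxia females at 79.9, 63.1 and 58.5 CPM. In room air males it stood at 63.4, 84.3 and 65.9 CPM, and in hyperoxia males at 112.5, 60.5 and 77.2 CPM. Room air female 6 was the lowest of the 12 lungs and hyperoxia male 1 the highest, and the groups overlapped in both sexes. Over both sexes the log2 fold change was 0.06 ± 0.17, and the sign turned when room air female 6 (-0.083), hyperoxia male 1 (-0.081) or hyperoxia female 2 (-0.017) was left out.

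Kit, at chr5:75574916-75656722 on the plus strand, encodes the receptor tyrosine kinase for stem cell factor, which general capillary cells share with mast cells and melanocytes. Kit ranged from 135.0 to 226.1 CPM in room air (median 184.9) and from 131.3 to 255.3 CPM after hyperoxia (median 160.2), with hyperoxia male 1 the highest lung. The log2 fold change was -0.39 ± 0.26 in females and 0.18 ± 0.26 in males, and neither was called. Markers of the other Kit-bearing cells are given without correction for gene length, and the part of these cells in the Kit level was not tested. The summed level of 6 mast cell genes was 23.9 to 36.6 CPM in room air and 29.0 to 37.9 CPM after hyperoxia. That of 4 melanocyte genes was 23.5 to 38.2 CPM in room air and 26.7 to 37.99 CPM after hyperoxia. None of these 10 genes was called.

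Gpihbp1, at chr15:75596628-75599481 on the plus strand, encodes the protein that carries lipoprotein lipase to the capillary lumen. It ranged from 28.9 to 59.6 CPM in room air (median 46.8) and from 29.7 to 53.9 CPM after hyperoxia (median 44.9), and its log2 fold change over both sexes was -0.08 ± 0.15. Plvap, at chr8:71497765-71511752 on the minus strand, encodes the protein of the diaphragms that bridge endothelial fenestrae and caveolae. In room air females Plvap stood at 206.4, 201.8 and 144.5 CPM, and in hyperoxia females at 139.6, 118.0 and 133.8 CPM, so that these groups did not overlap. In males it ranged from 104.9 to 178.6 CPM in room air and from 98.4 to 187.9 CPM after hyperoxia. The log2 fold change was -0.50 ± 0.25 in females (adjusted p = 0.405) and -0.02 ± 0.25 in males. The female value for Plvap was -0.03 on adjusting for the receptor share and -0.05 with pan-endothelial scaling.

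Of the genes of endothelium at large, Cldn5, at chr16:18776847-18778262 on the plus strand, encodes claudin 5, the main claudin of endothelial tight junctions. In room air females Cldn5 stood at 97.8, 117.0 and 83.1 CPM, and in hyperoxia females at 68.1, 55.4 and 67.2 CPM. In room air males it stood at 49.9, 75.3 and 68.8 CPM, and in hyperoxia males at 75.9, 35.3 and 72.1 CPM. The female groups did not overlap and the male groups did. The log2 fold change was -0.64 ± 0.23 in females (adjusted p = 0.352 in edgeR), -0.08 ± 0.23 in males and -0.36 ± 0.16 over both sexes (adjusted p = 0.927). The female value for Cldn5 was -0.21 on adjusting for the receptor share and -0.20 with pan-endothelial scaling. Pecam1, at chr11:106654217-106750628 on the minus strand, encodes the junction protein CD31 found on every endothelial cell. It ranged from 278.5 to 526.01 CPM in room air (median 400.5) and from 247.4 to 460.2 CPM after hyperoxia (median 351.2), with a log2 fold change of -0.20 ± 0.20 over both sexes.

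Taken as a list, none of the 9 genes was called after hyperoxia over both sexes, in a comparison that called 19 genes, 0.0415% of those tested (1 higher and 18 lower). Beside this count, 2 of the 9 (Apln and Cldn5) were lower at an unadjusted p under 0.05, as were 2.52% of all genes tested and 5.85% of the 14605 genes with a mean of at least 10 CPM, to which all 9 belong. In females none was called (1 gene was, 0.00218%), 2 of 9 were lower at an unadjusted p under 0.05 (5.28% of all genes and 14.4% of those of at least 10 CPM), and 3 of 9 (Apln, Plvap and Cldn5) had groups that did not overlap with hyperoxia below room air. That last pattern was found in 6.42% of all genes tested and in 15.6% of the genes of at least 10 CPM. In males none was called (0%), and 1 of 9 (Apln) was lower at an unadjusted p under 0.05 (1.8% of all genes and 1.15% of those of at least 10 CPM). None had male groups that did not overlap, as 3.89% of all genes and 1.96% of those of at least 10 CPM did with hyperoxia lower. Over both sexes none had groups that did not overlap, against 0.12% of all genes and 0.32% of those of at least 10 CPM with hyperoxia lower.

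**Figure D2:**
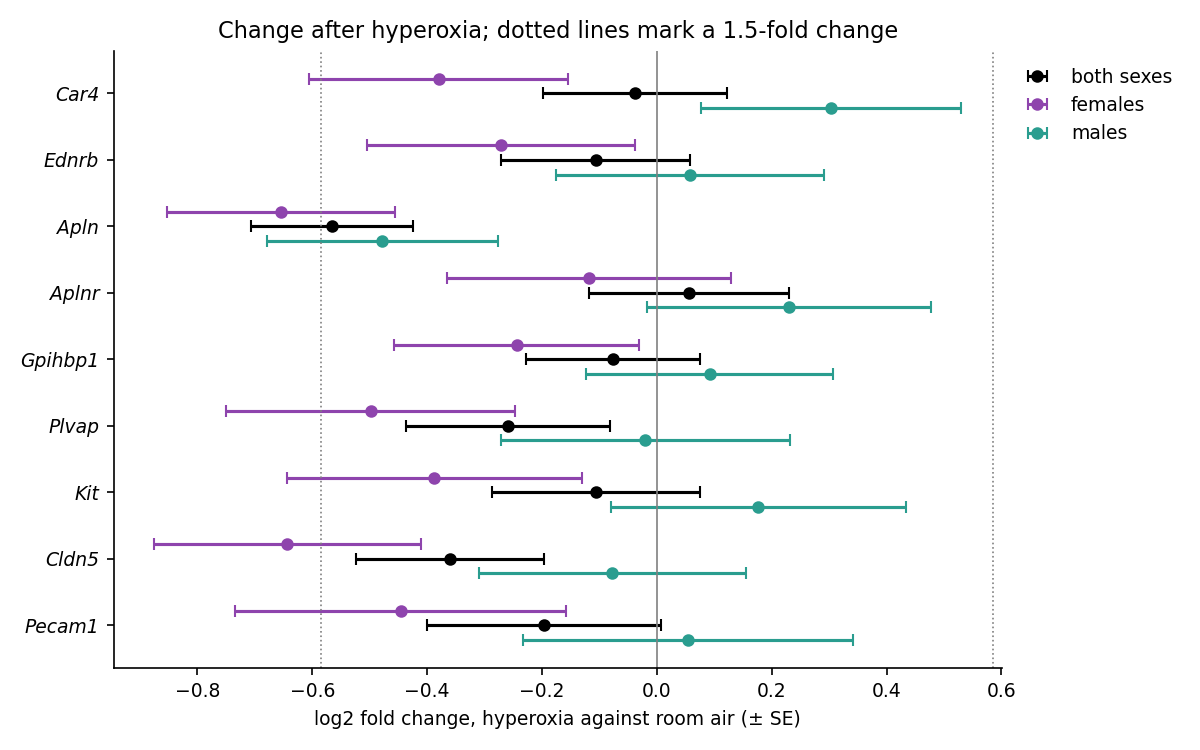
Log2 fold change of hyperoxia against room air (horizontal axis, with SE whiskers) for the 9 genes (vertical axis) in females, in males and over both sexes, from the edgeR fit of 12 lungs; dotted lines mark a 1.5-fold change. Apln lies at -0.65 in females, -0.48 in males and -0.57 over both, and all 9 genes lie lower in females than in males, an order that turned for 7 of them (all but Car4 and Cldn5) on adjusting for the receptor share.

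The log2 fold changes had different signs in the sexes for 6 of the 9 genes, and the difference between the sexes was called for none. In females the log2 fold changes of all 9 genes were negative, from -0.65 for Apln to -0.12 for Aplnr with a median of -0.39, whereas the median of all genes tested was 0.11, and 6 of the 9 (Car4, Ednrb, Aplnr, Gpihbp1, Kit and Pecam1) turned positive on adjusting for the receptor share. They also turned positive with pan-endothelial scaling, but that scaling moved the median of all genes in females to 0.53, and all 9 genes still lay below that median. The median of genes of at least 10 CPM, to which all 9 belong, was not taken on that scale, so their place among such genes is not known. Relative to the median of 0.11, Apln was at -0.77, Cldn5 at -0.76 and Plvap at -0.61 in females. In males the median of the 9 genes was 0.06, 6 of them were positive and Apln, Cldn5 and Plvap were negative, and 3 of the positive ones (Ednrb, Gpihbp1 and Pecam1) turned negative on adjusting for the receptor share. Genes with a mean of at least 10 CPM had a median of -0.17 in females and 0.03 in males, so well-expressed genes at large sat lower after hyperoxia in females. A fit with 1 RUVr factor called Apln and Cldn5 in females (adjusted p = 0.000841 and 0.0139), in a fit that called 1898 genes, 4.14% of those tested. In that fit Plvap, Pecam1, Kit, Car4 and Ednrb also had adjusted p-values from 1.84e-05 to 0.0127 in females, at folds under 1.5.

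Between females and males over both exposures none of the 9 genes was called, in a comparison that called 559 genes, 1.22% of those tested. Apln, an X-linked gene, had a log2 difference of 0.34 ± 0.14 (adjusted p = 0.53 in edgeR) and Cldn5 one of 0.34 ± 0.16 (adjusted p = 0.724), both higher in females. At the other end Aplnr had a log2 difference of -0.14 ± 0.17. Adjusting for the receptor share moved these differences to 0.23 for Apln, 0.20 for Cldn5 and -0.38 for Aplnr, the last with an adjusted p of 5.84e-05 at a fold under 1.5.

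The same lungs were lowest, and the same lungs highest, for Pecam1 and Kit. Hyperoxia male 2 and room air male 1 were the lowest lungs for Pecam1 (247.4 and 278.5 CPM) and for Kit (131.3 and 135.0 CPM), and these were also the lungs with the highest receptor shares, 0.945% and 0.900%. Room air female 5, hyperoxia male 1 and room air female 2 had the lowest receptor shares, 0.410%, 0.515% and 0.516%, and the 3 highest levels of both genes. Apln kept this order less closely: hyperoxia male 1 had 35.5 CPM of Apln, below 5 of the 6 room air lungs, although its Aplnr level was the highest of the 12. The part of this composition in the results was not tested. Estimated background, taken from the read density over receptor genes, made up a median of 1.81% of the counts of Plvap and 10.9% of those of Apln, with a highest value of 26.2% for Apln in a single lung.

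**Figure D3:**
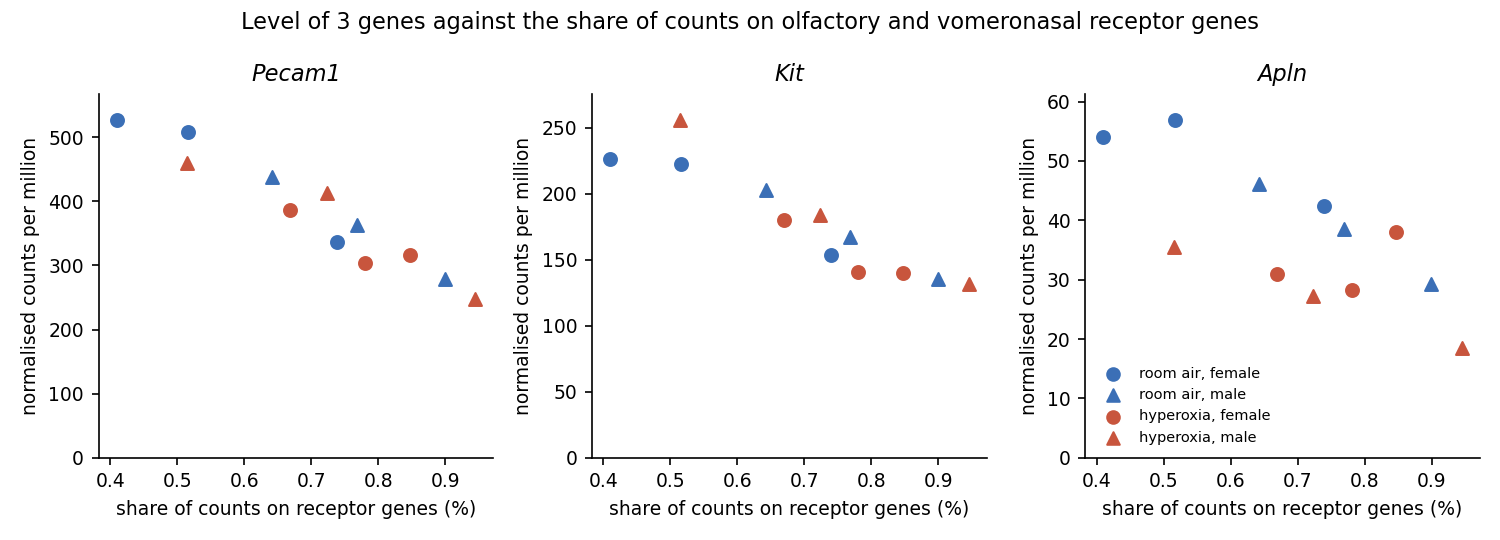
Normalised counts (CPM) (vertical axis, from 0) of Pecam1, Kit and Apln against the share of a library's counts on 1490 olfactory and vomeronasal receptor genes (horizontal axis, in percent); each point is a lung, circles for females and triangles for males, blue for room air and red for hyperoxia. Pecam1 and Kit are lower where the share is higher in both exposures, and most hyperoxia lungs lie below room air lungs of a like share in the Apln panel.

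Ratios of counts within a lung remove what all endothelial genes share, and are given as descriptions. Per 100 Pecam1 counts, the room air lungs had 10.3 to 12.6 Apln counts and the hyperoxia lungs 6.62 to 9.31, apart from hyperoxia female 5 with 12.02. The 3 room air males stood at 10.5, 10.5 and 10.6, and the 3 hyperoxia males at 7.72, 7.48 and 6.62. Of the 6 hyperoxia lungs 5 thus lay below all 6 room air lungs, and hyperoxia female 5 stood within the room air range.

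A like split was seen against the other aerocyte genes and the apelin receptor. All of these ratios share the Apln counts, so they restate the same values and are not separate support. How many other genes split the lungs in this way was not counted. Per 100 Car4 counts there were 73.4 to 88.9 Apln counts in room air and 42.5 to 63.5 after hyperoxia, apart from 90.2 in hyperoxia female 5. Per 100 Ednrb counts there were 42.2 to 52.1 in room air and 28.2 to 36.7 after hyperoxia, apart from 50.1 in hyperoxia female 5. Per 100 Aplnr counts there were 46.1 to 100.8 in room air and 30.6 to 65.1 after hyperoxia. In each of these ratios 5 of the 6 hyperoxia lungs lay below all room air lungs.

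Of the remaining pairs, Aplnr per 100 Pecam1 counts stood at 12.5 in room air female 6 and at 16.1 and 17.97 in the other 2 room air females. In hyperoxia females this ratio was 18.5 to 20.8, above every room air female. Per 100 Pecam1 counts, Cldn5 ranged from 17.2 to 24.7 in room air and from 14.3 to 21.2 after hyperoxia, and 2 hyperoxia lungs lay below all room air lungs. Car4 ranged from 12.8 to 14.8 in room air and from 13.3 to 17.6 after hyperoxia, with 4 hyperoxia lungs above all room air lungs. Over both sexes Plvap, Kit, Ednrb, Gpihbp1 and Aplnr overlapped in their ratios to Pecam1. At most 2 hyperoxia lungs lay outside the room air range on either side. In females alone Gpihbp1, like Aplnr, did not overlap, at 10.8 to 11.3 in room air and 11.6 to 14.2 after hyperoxia. Car4 did not overlap in males, at 12.8 to 14.1 in room air and 15.6 to 17.6 after hyperoxia.

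**Figure D4:**
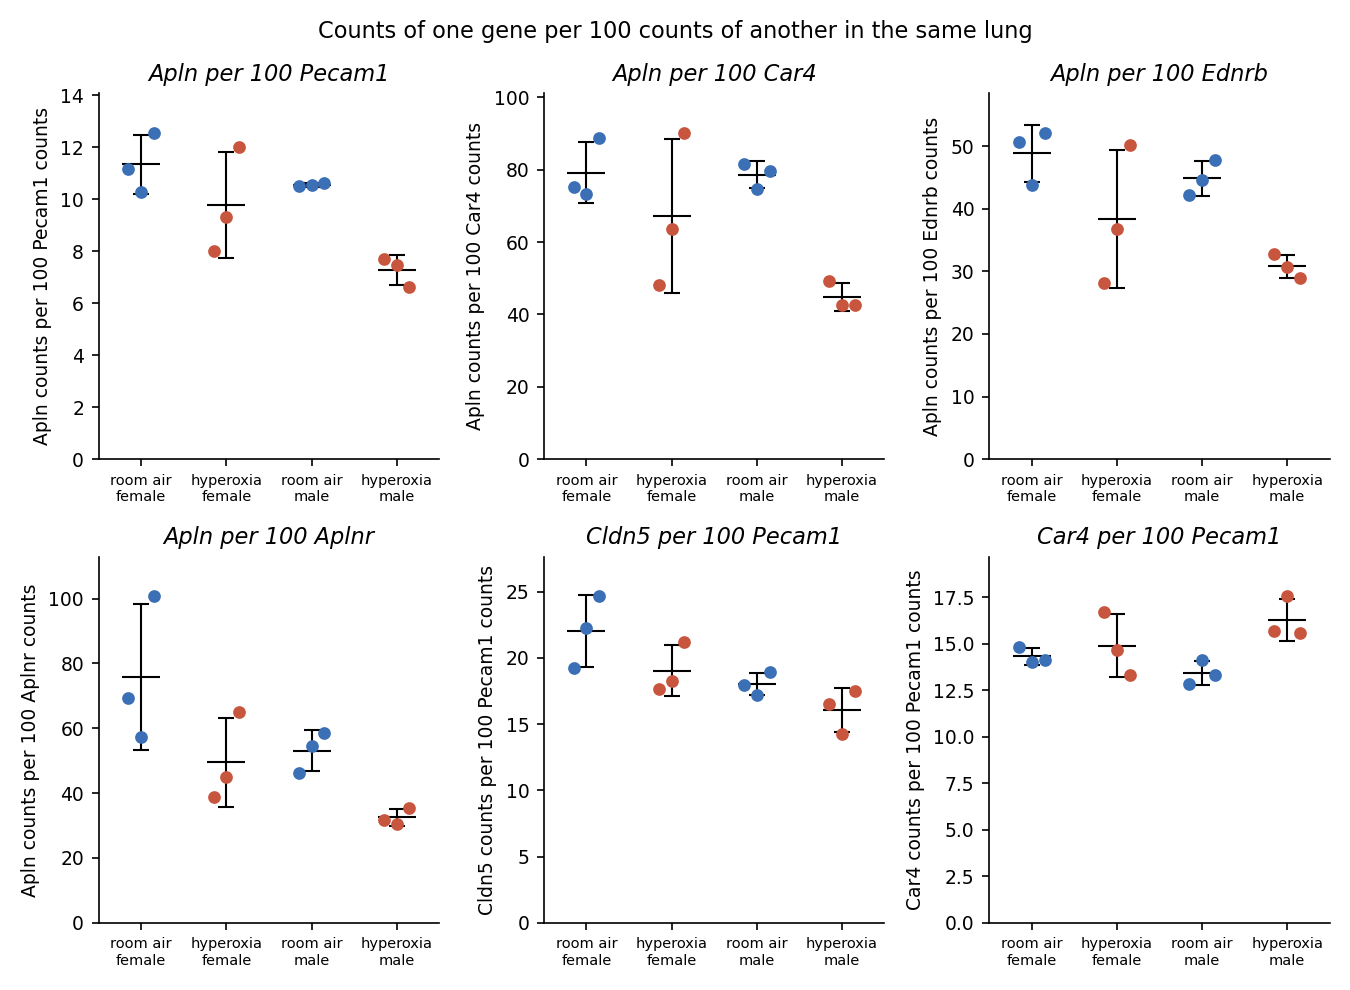
Counts of a gene per 100 counts of another in the same lung (vertical axes, from 0) by group (horizontal axis); points are lungs, blue for room air and red for hyperoxia, with the mean and SD of 3 lungs. In the 4 Apln panels the hyperoxia males lie below every room air male, and hyperoxia female 5 is the uppermost hyperoxia lung.

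Scaling each library to the summed counts of 16 other pan-endothelial genes took out what these genes share in another way. On that scale Apln was 38.1 to 42.8 in room air and 26.6 to 44.7 after hyperoxia, with 5 of 6 hyperoxia lungs below all room air lungs. The coefficient of variation over the 12 lungs went from 23.5% to 4.75% for Pecam1, from 21.8% to 6.43% for Ednrb and from 25.3% to 7.86% for Plvap. For Apln it went from 30.5% to 18.5%, and for Aplnr from 25.4% to 18.8%, the pair that varied most once the shared part was taken out. The edgeR fit on this scale moved Apln from -0.57 to -0.37 over both sexes and the median of all genes from 0.03 to 0.24. The distance of Apln from that median changed little.

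The genes with the most similar profile over the 12 lungs are given by Pearson's r of log2 CPM, among genes with a mean of at least 10 CPM, as descriptions. The points share their libraries and composition, which raises every r. For Apln they were Lmo2 (0.96), Lama3 (0.96) and Spry4 (0.95), for Aplnr Plscr2 (0.95), Sap30l (0.95) and H1f0 (0.94), and for Cldn5 Foxf1 (0.98), Cish (0.98) and Dusp6 (0.98). For Gpihbp1 the first was Robo4 (0.97), and for Kit the second was Tie1 (0.99), both pan-endothelial genes on the list used for scaling. The nearest genes to Car4, Ednrb, Plvap and Pecam1 were Ccdc82, Phactr2, Gprc5a and Sptan1, with r from 0.98 to 0.99. Among the 9 genes themselves, Ednrb and Pecam1 were the most alike (r = 0.96), and Apln and Aplnr the least (r = 0.26), the ligand and its receptor.

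The ligands, enzymes and partners of these genes were read next, and none of 21 was called. Of the endothelin system, Edn1, the ligand of Ednrb, had a log2 fold change of 0.30 ± 0.11 over both sexes (adjusted p = 0.921 in edgeR), with 18.5 ± 2.2 CPM in hyperoxia females against 15.2 ± 1.34 in room air females and 17.7 ± 3.06 against 14.2 ± 0.874 in males (SD, n = 3 each). Edn2 was at 0.19, Edn3 at -0.10, the converting enzyme Ece1 at -0.10 and the other receptor Ednra at -0.0029. Apela, the other ligand of the apelin receptor, was scarce at a mean of 2.5 CPM, with a log2 fold change of 0.11 ± 0.22.

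Of the partners of Gpihbp1, Angptl4, an inhibitor of lipoprotein lipase, had a log2 fold change of 0.38 ± 0.13 (adjusted p = 0.896 in edgeR), Lpl, the lipase, one of 0.30 ± 0.16, and Lmf1, which matures it, one of -0.04 ± 0.11. In males Lpl stood at 119 ± 21.8 CPM after hyperoxia and 80.4 ± 4.1 in room air (SD, n = 3 each), and in females at 88.3 ± 29.8 and 85.8 ± 23.3. Kitl, the ligand of Kit, had log2 fold changes of -0.59 ± 0.27 in females (adjusted p = 0.382) and -0.02 ± 0.27 in males. The median of the 21 genes was -0.05 over both sexes, beside 0.03 for all genes and -0.06 for the genes of at least 10 CPM.

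Further genes of the same cells were also read as lists. Of 9 further aerocyte genes none was called, 6 were negative over both sexes and their median was -0.17. Kdr, the VEGF receptor that keeps aerocytes, was at -0.37 ± 0.20 and Prx at -0.27 ± 0.18. Of 7 further general capillary genes none was called, 5 were negative and the median was -0.10, with Hpgd at -0.24 and Cxcl12 at -0.19. Of 16 further pan-endothelial genes none was called, 14 were negative and the median was -0.14, with S1pr1 at -0.32 and Cdh5 at -0.24. In females all 16 were negative (median -0.37) and in males 3 were (median 0.09), signs like those of the 9 genes.

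Vessels other than capillaries and neighbouring cells gave values to set beside these. None of 7 arterial genes (median -0.0047, with Efnb2 at -0.15 and Hey1 at 0.15), 4 venous genes (median -0.07, with Slc6a2 at -0.15 and Nr2f2 at 0.11) or 4 lymphatic genes (median 0.04, with Lyve1 at 0.22 and Prox1 at 0.09) was called. None of 6 pericyte genes (median -0.02, with Cspg4 at -0.13 and Kcnj8 at 0.09) or 5 macrophage genes (median -0.02, with Chil3 at 0.53 and Cd68 at -0.13) was called. The 5 alveolar type 1 genes had a median of -0.45 in females and -0.01 in males, with Aqp5 at -0.42 and Pdpn at -0.27 over both sexes. The 5 alveolar type 2 genes had a median of -0.56 in females and 0.17 in males, with Lamp3 at -0.22 and Sftpc at -0.21 over both. Alveolar epithelial genes thus had lower medians in females than in males, as the 9 capillary genes did, and none of these 10 was called.

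**Figure D5:**
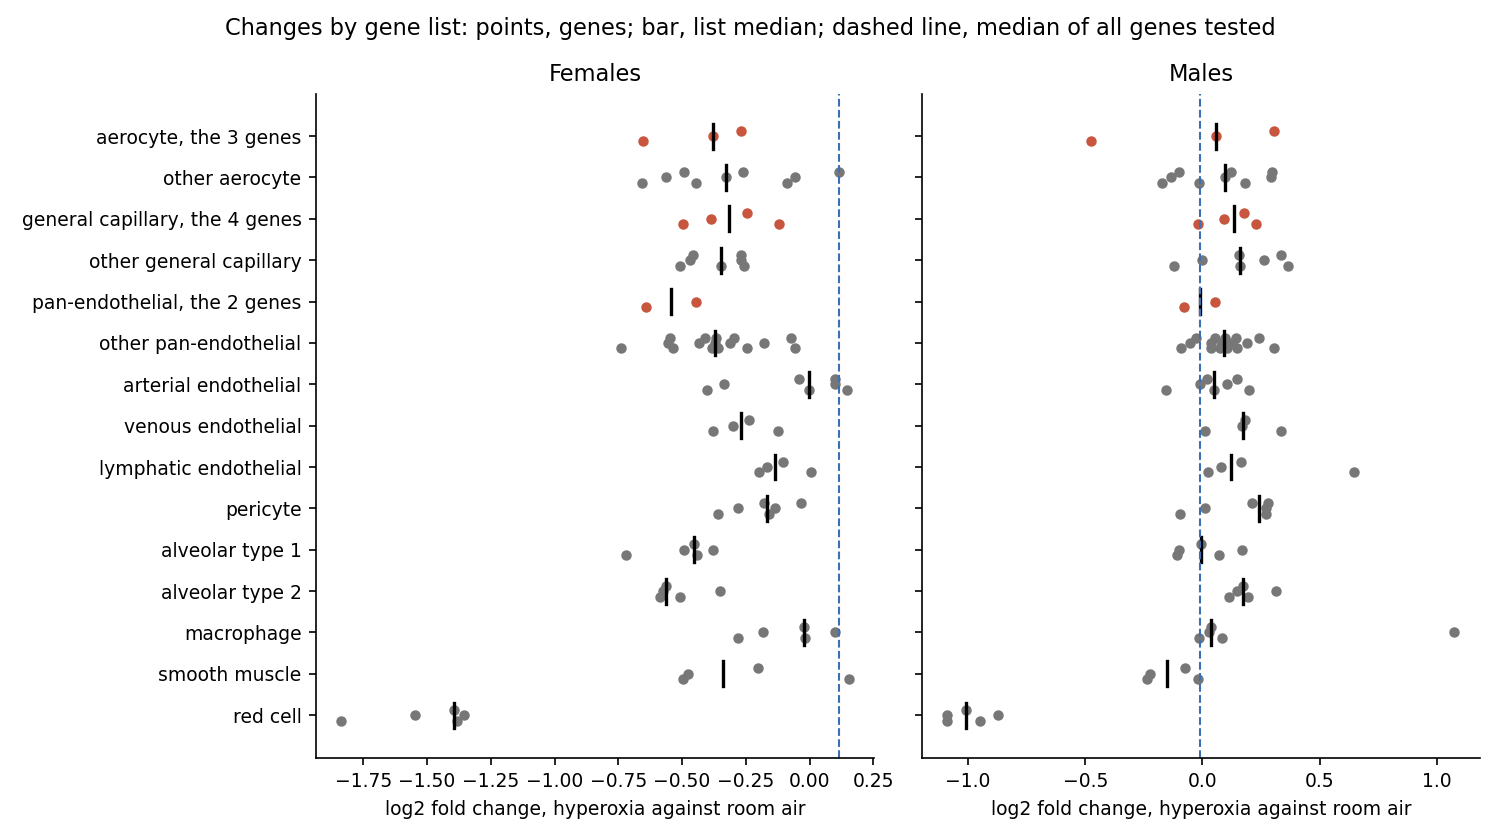
Log2 fold change of hyperoxia against room air (horizontal axes) for the genes of 15 lists (vertical axis) in females and in males; points are genes, red for the 9 capillary genes, black bars are list medians and the dashed line is the median of all genes tested. The medians of the endothelial and alveolar lists lie left of the dashed line in females. Genes with a mean of at least 10 CPM had a female median of -0.17. The arterial (-0.0018) and lymphatic (-0.14) medians lie right of that value, and the rest of these lists lie left of it. In males the medians of most of these lists, among them both aerocyte and both general capillary lists, lie right of the dashed line. Red cell genes lie below -0.8 in both sexes.

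Red cell genes were the exception. All 5 were negative in both sexes and 3 were called lower over both (Alas2, Hbb-bt and Hba-a2), with Hba-a1 at -1.46 ± 0.29 (adjusted p = 0.0555) and Hbb-bt at -1.28 ± 0.23 (adjusted p = 0.0205). Their summed level was 5118 to 7881 CPM in the room air lungs and 1247 to 4650 CPM after hyperoxia, ranges that did not overlap. Car2, a carbonic anhydrase that red cells hold in quantity, was at -0.62 ± 0.17 (adjusted p = 0.449), and the 12 carbonic anhydrase genes other than Car4 had a median of 0.01, with Car3 at -1.24 ± 0.62 over both sexes and -0.44 in females. Car3 was highest in room air male 1, the library rich in muscle genes, at 46.4 CPM. Red cell transcripts thus moved with exposure, and their part in the capillary values was not tested. Skeletal muscle genes, with Acta1 at -2.59 and Ckm at -1.50 over both sexes, were highest in room air male 1, and in females Acta1 was at 0.32 and Ckm at -0.20. The 4 smooth muscle genes had a median of -0.19, with Acta2 at -0.36 and Cnn1 at -0.28. The 4 platelet genes had a median of 0.16, with Gp9 at 0.29 and Ppbp at 0.16. Among the mast cell and melanocyte genes, Fcer1a was at 0.34, Cma1 at 0.20, Pmel at 0.18 and Mlana at 0.15, and none was called.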

How the data were processed

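RNA-Seq of 12 whole lungs was analysed, and the labels' titles and characteristics gave the groups. The authors deposited whole-number counts per gene, without normalization, after trimming with Trim Galore, mapping to mm10 with STAR and counting with featureCounts. The labels name a directional kit with rRNA depletion and the paper a different stranded kit, and the strand setting of the counting is not given in the sources used here. No exon of the 9 genes overlaps another gene. Each column matched 1 sample, and 0 columns were left over.

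Gene positions and exon lengths came from GENCODE mouse release 21 (GRCm38), which matched 55227 of 55487 genes. Counts were fitted with edgeR 4.0.16 in R 4.3.3, a robust quasi-likelihood model of 4 groups (filterByExpr kept 45828 genes; normalization used the upper quartile), with DESeq2 1.42.0 as an alternative. The biological coefficient of variation was 0.177. To be called, a gene needed a fold of more than 1.5 and, after Benjamini-Hochberg adjustment, p under 0.05. Depth was 8763033 to 16741694 counts, so 3 counts equal 0.179 to 0.342 CPM. The model was also run on simulated counts with known changes as a check of the code, which says nothing about the calls in these lungs.

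The 9 genes and the lists were chosen with earlier results of these data known. Named beside them are, from each list, the 2 genes with the largest absolute change over both sexes among those of at least 1 CPM, and the genes that bind or process one of the 9 or its ligand; Xist, Ddx3y, Mir30a, Sftpc, Robo4, Tie1 and Car2 serve as checks. Alternatives were another normalization, RUVr factors, DESeq2, 2 other filters, the receptor share as a covariate, scaling to pan-endothelial genes, a replicate block, and each lung left out. Subtraction of background was added after seeing the data.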

Additional observations from a re-analysis of the deposited data

Results flagged for a closer look

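One value was flagged among 50 tested, in groups of 6 lungs per exposure, where chance alone flags about 1 in 20. Room air male 1 held 0.174% of its counts on 6 skeletal muscle genes, against 0.0162% in the next room air lung. It was also low for the capillary genes, with 29.2 CPM of Apln and 278.5 CPM of Pecam1. Without it, Apln was at -0.64 over both sexes (adjusted p = 0.146 in edgeR) and Cldn5 at -0.44 (adjusted p = 0.798), against -0.57 and -0.36 with it. None of the 9 genes was flagged in either exposure, and none had a response that differed between the sexes past the threshold.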

How the results depend on the processing

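Of the 9 genes, Apln and Cldn5 kept a negative sign over both sexes and in females under each of the alternatives run, and Plvap did too, but in females they shrank to -0.28, -0.21 and -0.03 with the receptor share modelled and to -0.20, -0.20 and -0.05 with pan-endothelial scaling, from -0.65, -0.64 and -0.50. In all, none of the 9 was called except by RUVr, with 1 factor or with 2 (2 genes in females and 1 gene in the difference between the sexes), and when hyperoxia male 1 was left out (1 gene over both sexes). The number of genes called moved more. Over both sexes it was 19, against 92 and 118 with 1 and 2 RUVr factors, 40 with DESeq2, 10 with background subtracted and 2 when scaled to pan-endothelial genes. In females it was 1, against 1898 and 1945 with RUVr, 44 with DESeq2, 0 with TMM, background subtraction or pan-endothelial scaling, 8 without a filter and 22 with the receptor share modelled. In males it was 0, against 16 and 71 with RUVr, 6 with the receptor share and 5 with pan-endothelial scaling. For the difference between the sexes it was 0, against 2102 and 2223 with RUVr. Between the sexes it was 559, against 1006 and 1044 with RUVr, 1004 without a filter, 977 with the receptor share, 266 with at least 10 counts in every library and 89 with pan-endothelial scaling. Leaving out a lung gave 3 (hyperoxia female 5) to 37 genes (hyperoxia male 1) over both sexes, 0 to 206 (room air female 6) in females and 0 to 1 in males.

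Signs turned for values near 0 and also for larger ones, such as Pecam1 (-0.45), Kit (-0.39) and Car4 (-0.38) in females, and the cause was not tested. With the receptor share modelled the log2 fold changes over both sexes were 0.15 for Car4, 0.069 for Ednrb, 0.11 for Gpihbp1 and 0.068 for Kit. In females they were 0.11 for Car4, 0.20 for Ednrb, 0.53 for Aplnr, 0.24 for Gpihbp1, 0.098 for Kit and 0.045 for Pecam1, in males -0.065 for Ednrb, -0.028 for Gpihbp1 and -0.070 for Pecam1, and the Apln difference between the sexes was 0.29. With the receptor share modelled this difference was positive for 7 of the 9 genes, from 0.06 for Kit to 0.47 for Aplnr, against negative values for all 9 without it. With pan-endothelial scaling, which moved the median of all genes to 0.24 over both sexes and 0.53 in females, they were 0.17 for Car4, 0.082 for Ednrb, 0.13 for Gpihbp1, 0.085 for Kit and 0.0023 for Pecam1 over both. In females they were 0.057 for Car4 and Kit, 0.16 for Ednrb, 0.36 for Aplnr, 0.22 for Gpihbp1 and 0.0047 for Pecam1, in males -0.00012 for Pecam1, and the Apln difference was 0.34. The difference was also positive under this scaling for Aplnr (0.20), Gpihbp1 (0.18), Ednrb (0.16), Plvap (0.018) and Pecam1 (0.0048), where the median of all genes was 0.53. Background subtraction, added after seeing the data, gave 0.042 for Car4 and 0.0040 for Gpihbp1 over both, 0.11 for Aplnr in females, -0.011 for Ednrb and -0.020 for Pecam1 in males, and 0.11 for the Apln difference. DESeq2 gave 0.010 for Plvap in males.

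With single lungs left out, the values over both sexes ran from -0.69 to -0.46 for Apln, -0.083 to 0.17 for Aplnr, -0.15 to 0.070 for Car4, -0.21 to 0.00037 for Ednrb, -0.17 to 0.029 for Gpihbp1 and -0.24 to 0.00074 for Kit. Values that kept their sign over both sexes ran from -0.45 to -0.22 for Cldn5, -0.29 to -0.081 for Pecam1 and -0.41 to -0.14 for Plvap. In females Aplnr ran from -0.40 to 0.11, Ednrb from -0.47 to -0.14 and Gpihbp1 from -0.44 to -0.11. In males the values ran from -0.043 to 0.42 for Aplnr, -0.26 to 0.20 for Cldn5, -0.12 to 0.27 for Ednrb and -0.10 to 0.31 for Gpihbp1. They ran from -0.090 to 0.39 for Kit, -0.12 to 0.29 for Pecam1 and -0.32 to 0.22 for Plvap. Apln stayed negative in males, from -0.71 to -0.26, and Car4 positive, from 0.13 to 0.52. The Apln difference ran from -0.39 to 0.058, and Aplnr between the sexes from -0.25 to 0.0041.

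Lungs that share a number did not deviate together (r of deviations from the group means 0.21, -0.33 and -0.49 over 14605 genes), so the numbers pair nothing. A replicate block put Apln at -0.37 over both sexes, Gpihbp1 at 0.048 and the genes called at 2, and in females Apln at -0.69 with 1 gene called. Background, taken from receptor genes, made up as much as 26.2% of Apln counts in a lung.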
